A study of Drosophila melanogaster with 12 samples.

Results

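The genes described here encode subunits of the mitochondrial respiratory chain and ATP synthase in Drosophila melanogaster. A gene was taken as a member where a probe set carried its symbol alone and the symbol began with ND-, UQCR- or ATPsyn, with SdhA to SdhD, or with COX followed by a digit. Where a gene had several such probe sets, the one with the highest mean over the 12 arrays stood for it. The rule found 72 genes among the 11983 genes named on the array. Of these, 51 bear the name of a subunit and 21 bear such a name with an added L (for like), a kind of paralogue known mainly from the testis. ND-MNLL, whose L is part of a subunit's own name, was kept with the subunits. The subunit names fell into complex I (27 genes), complex II (3), complex III (4), complex IV (7) and complex V (10). The paralogues fell into the same complexes with 5, 3, 2, 7 and 4 genes. The RefSeq annotation lists 90 genes that fit the naming pattern, and 18 of them had no probe set of their own, among them SdhA, UQCR-C1, UQCR-C2 and the core complex I subunits ND-23, ND-24, ND-30 and ND-49.

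The samples were mesodermal cells of embryos between late stage 11 and early stage 12, sorted as GFP-positive cells by flow cytometry. All 12 samples carried twi-gal4 and UAS-GFP, so the Twist driver expressed GFP in Twist-expressing cells. The wild-type embryos had these insertions only, and were measured as set 1 (3 arrays) and set 2 (3 arrays). The Slou embryos (3 arrays) had UAS-S59 as well, which drives the homeodomain factor Slou, and the Msh embryos (3 arrays) had UAS-msh, which drives the homeodomain factor Msh, in the same cells. The labels do not say whether replicate arrays derive from separate collections of embryos, so p-values measure only how far these arrays scatter, which may be technical scatter. Since the driver and the sort both depended on Twist, the profiles are averages over all Twist-lineage cells recovered. In such bulk samples, fewer cells of a type and less RNA per cell cannot be told apart.

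The respiratory chain passes electrons from NADH and succinate to oxygen and pumps protons across the inner mitochondrial membrane. Complex I accepts electrons from NADH, complex II from succinate, complex III hands them to cytochrome c, and complex IV reduces oxygen. Complex V, the ATP synthase, lets the protons flow back and makes ATP. Apart from a few proteins made inside the mitochondrion, the subunits are encoded in the nucleus, and insect flight muscle is known for very high levels of them.

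The deposited log2 values are on a pair of scalings. Over all tested probe sets the array medians were 2.59 to 2.72 for wild type set 1 with Slou, and 3.85 to 3.91 for wild type set 2 with Msh. Slou was therefore compared with set 1 and Msh with set 2, each in a limma fit of 6 arrays over all 18769 tested probe sets, with a Benjamini-Hochberg adjusted threshold of 0.05. The labels do not tie Msh to set 2: the Msh, Slou and set 1 arrays carry replicate number 1, and set 2 carries 2. The pairing follows the scaling of the values instead. The probe set of slou rose by 5.48 in the Slou arrays (SE 0.11, adjusted p = 0.00152). Dr, the gene that encodes Msh, averaged 9.03 in set 2 and 9.36 in the arrays labelled Msh (change 0.32, SE 0.14, adjusted p = 0.254). All 3 of those arrays lay above set 2, and with an intensity trend in the limma fit the rise passed (adjusted p = 0.0216). It was small beside that of slou, and Msh below means the arrays so labelled. The mesodermal genes twi, zfh1 and htl had set 2 means of 8.06, 10.59 and 8.35. Marker lists averaged 8.54 for mesoderm and muscle, 8.67 for neural cells, 9.25 for hemocytes and fat body and 7.55 for epidermis and trachea. The epidermis and trachea list also holds the salivary gland gene sage. These levels therefore do not show the mesodermal origin of the cells, which rests on the sort.

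Most subunit genes gave bright, tight signals in wild type. Their median over the 51 genes was 8.30 in set 1 and 10.31 in set 2. The 3 exceptions were ND-B8, ND-B12 and UQCR-11, with set 2 means of -0.06 ± 1.06, 5.31 ± 0.29 and 5.95 ± 0.02 (SD, n = 3 each), while the next dimmest, ND-13B, averaged 8.54 ± 0.07 (SD, n = 3). ND-MLRQ had the brightest probe set in both sets (11.35 and 12.74). It is filed under complex I by its fly name, while its mammalian relative is known as a complex IV protein. Signals of different probe sets do not rank the mRNAs, since each probe set has its own response.

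Subunit genes of each complex fell in the Msh arrays. Of 72 members, 33 fell and 1 rose, all of them subunit names, and 17 subunit names and all 21 paralogues did not pass. Over all tested probe sets, 3.95% fell and 2.86% rose, and among the brightest 4693 probe sets 9.25% fell. The median change of the 51 subunit names was -0.49, against 0.02 over all tested probe sets and 0.01 over 2997 probe sets in the same range of wild-type signal. In 47 of the 51, all 3 Msh arrays lay below all 3 set 2 arrays, which held for 15.3% of all probe sets. It held for 1048 of the 2997 probe sets in the same range of signal. Without the 3 dim genes, a group set apart after the values were seen, all 48 changes were negative, from -0.93 to -0.08, and their median corresponded to 69.4% of the wild-type signal.

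The shift was alike on each array. The median signal over the 51 subunit genes was 10.35, 10.33 and 10.23 on the set 2 arrays, and 9.67, 9.66 and 9.68 on the Msh arrays. The lowest wild-type array thus stood above the highest Msh array, and the Msh arrays differed among themselves by less than the wild-type arrays did.

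The number of calls depended on the array count and on how limma pooled the spread. Leaving out any of the 3 Msh arrays or wild-type array B left 0 of 72 members called, leaving out wild-type array C left 2, and leaving out wild-type array A left 17. Those fits also lost most calls over the whole table, which went from 1278 to between 16 and 602. With a spread that follows the signal level (an intensity trend), 47 members fell and 1 rose, against 9.21% of all probe sets that fell. The trend also gave more calls among bright probe sets: of the 2997 in the same range of wild-type signal, 889 fell. With the trend, leaving out single arrays gave 45 to 49 calls among the members. A replicate block without the trend left 0 members called and 0 calls in the whole table. With block and trend together 48 members were called. The median over the 51 subunit names lay between -0.55 and -0.47 whichever array was left out.

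**Figure D1:**
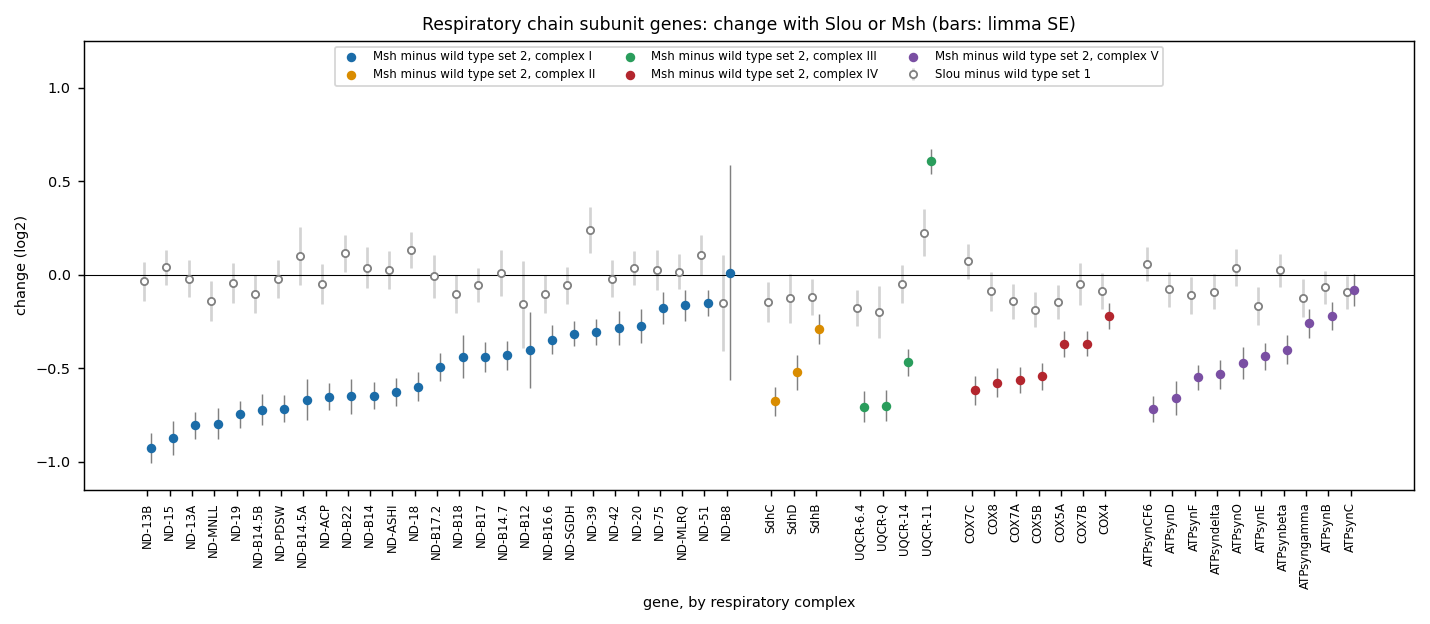
Change on the log2 scale (vertical axis) of the 51 subunit genes, ordered by complex along the horizontal axis. Filled points are Msh minus wild type set 2 and open points Slou minus wild type set 1, with bars of 1 limma SE; the filled points lie below 0 for all but ND-B8 and UQCR-11, and the open points lie between -0.20 and 0.24.

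**Figure D2:**
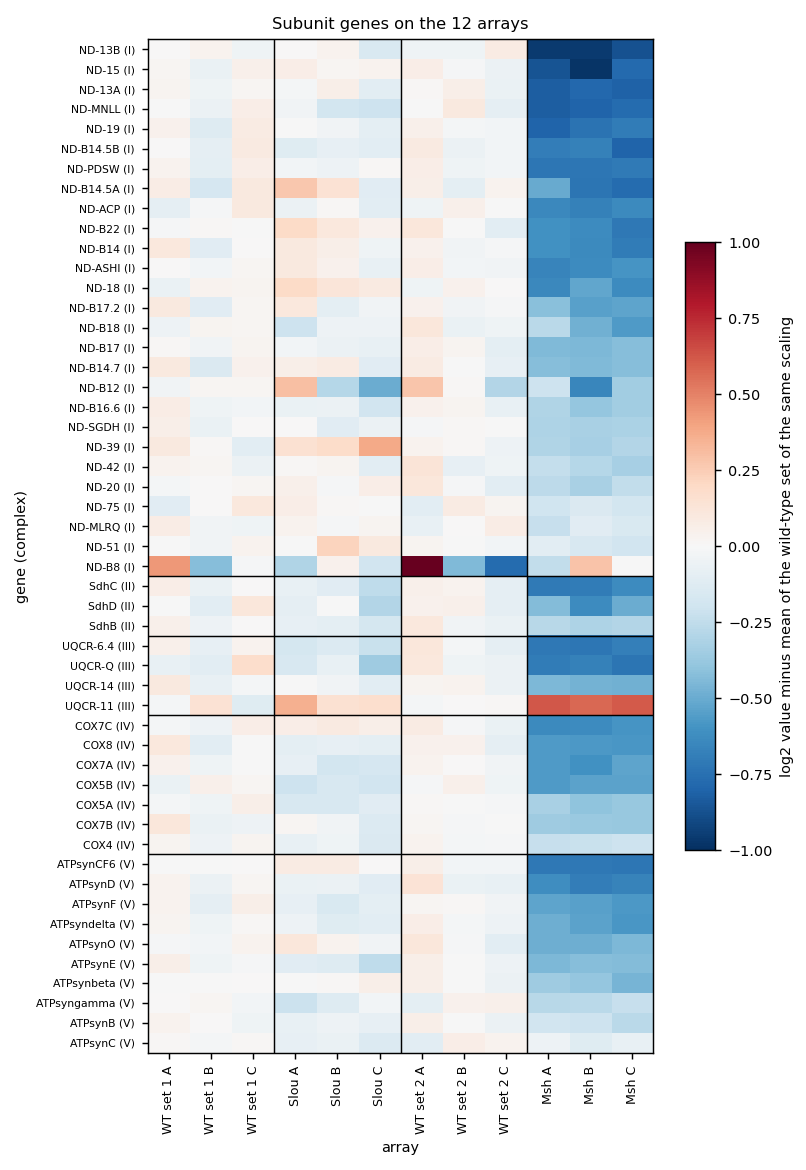
Each subunit gene (rows, with its complex) on each of the 12 arrays (columns), coloured by the log2 value minus the mean of the wild-type set of the same scaling. The 3 Msh columns are below wild type in nearly every row, with UQCR-11 above it, while the Slou columns stay near 0.

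In complex I, 16 of 27 genes fell in Msh and the median change was -0.49. ND-13B, an accessory subunit, read 8.50, 8.50 and 8.63 on the wild-type arrays and 7.59, 7.59 and 7.67 on the Msh arrays. Its groups lay far apart, with a change of -0.93 (SE 0.08, adjusted p = 0.0109), which is 52.6% of the wild-type signal. ND-13A, an accessory subunit of the NADH-oxidising arm, read 10.12, 10.17 and 10.05 against 9.29, 9.33 and 9.31. Here too every Msh array lay below every wild-type array (change -0.81, SE 0.07, adjusted p = 0.0126). ND-15, which sits in the membrane arm in mammals, averaged 10.06 ± 0.07 (SD, n = 3) in wild type and read 9.20, 9.08 and 9.28 in Msh (change -0.87, SE 0.09, adjusted p = 0.0156). ND-19, ND-PDSW and ND-MNLL completed the 6 genes with the smallest p, with changes of -0.75, -0.72 and -0.80. Of these 6, ND-PDSW varied least among the Msh arrays, which read 9.67, 9.66 and 9.68 against 10.45, 10.35 and 10.36 in wild type.

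The mitochondrial acyl carrier protein gene ND-ACP had 3 probe sets, and all 3 fell, by 0.65, 0.77 and 0.63 on the log2 scale. ND-ACP also serves mitochondrial fatty acid and lipoate synthesis outside complex I. ND-B17 had 2 probe sets that fell by 0.44 and 0.54.

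The 3 core subunit genes of complex I that were measured had small changes. ND-75 read 9.19, 9.38 and 9.32 in wild type and 9.10, 9.15 and 9.11 in Msh (change -0.18, SE 0.08, adjusted p = 0.300). ND-51, which binds NADH, changed by -0.15 and ND-20, an iron-sulfur subunit, by -0.27, and neither passed. In all 3 genes the Msh arrays lay below the wild-type arrays without overlap, but by a narrow margin. The 3 core genes had a median change of -0.18 with 0 calls (1 at an unadjusted p under 0.05, 3 with the intensity trend). The 22 other bright complex I genes had a median of -0.64 with 16 calls. This split was made after the values were seen and is a description. The remaining complex I genes that did not pass were ND-B18, ND-B16.6, ND-SGDH, ND-39, ND-42 and ND-MLRQ, with changes from -0.44 to -0.16, and the dim ND-B12 and ND-B8, whose groups overlapped.

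Of the 3 measured complex II genes, both membrane anchors fell in Msh. SdhC read 10.35, 10.33 and 10.21 in wild type and 9.59, 9.60 and 9.67 in Msh, a gap several times the spread within either group (change -0.68, SE 0.08, adjusted p = 0.0195). SdhD read 9.18, 9.19 and 9.05 against 8.70, 8.51 and 8.64 (change -0.52, SE 0.09, adjusted p = 0.0449). SdhB, the iron-sulfur subunit, read 9.61, 9.47 and 9.43 against 9.23, 9.20 and 9.21, and its change of -0.29 did not pass (adjusted p = 0.116). The groups did not overlap in any of the 3 genes.

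In complex III, 3 of 4 genes fell in Msh and 1 rose. UQCR-6.4, a small subunit, read 12.06, 11.93 and 11.86 against 11.24, 11.23 and 11.27 (change -0.71, SE 0.08, adjusted p = 0.0200). UQCR-Q read 9.18, 9.03 and 9.02 against 8.38, 8.40 and 8.35 (change -0.70), and UQCR-14 changed by -0.47. UQCR-11, related to the acidic hinge protein that helps cytochrome c dock in mammals, went the other way. It read 5.93, 5.95 and 5.96 in wild type and 6.57, 6.53 and 6.56 in Msh, so all Msh arrays were higher (change 0.61, SE 0.07, adjusted p = 0.0174). Its probe set was among the 3 dim ones.

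In complex IV, 6 of 7 genes fell in Msh. COX7C read 11.92, 11.82 and 11.77 in wild type and 11.20, 11.21 and 11.25 in Msh (change -0.62, SE 0.08, adjusted p = 0.0214). COX7A read 12.22, 12.18 and 12.15 against 11.62, 11.58 and 11.66 (change -0.57, SE 0.07, adjusted p = 0.0216). Both are small nuclear-encoded subunits, and in both the gap exceeded the range of either group. COX8 and COX5B changed by -0.58 and -0.54, and COX5A and COX7B, at -0.37 each, passed with adjusted p of 0.0484 and 0.0451. COX4 read 11.95, 11.90 and 11.90 against 11.69, 11.69 and 11.70. Its groups did not overlap, but its change of -0.22 did not pass (adjusted p = 0.138).

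In complex V, 6 of 10 genes fell in Msh, and the changes ran from -0.72 to -0.08. ATPsynCF6, the coupling factor of the outer stalk, read 11.10, 11.02 and 11.02 in wild type and 10.33 on every Msh array (change -0.72, SE 0.07, adjusted p = 0.0146). ATPsynD, another protein of that stalk, changed by -0.66, and ATPsynF and ATPsyndelta, in the membrane part and the central stalk, by -0.55 and -0.53. ATPsynO and ATPsynE also passed, at -0.47 and -0.44.

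The other 4 genes of complex V did not pass. ATPsynC, the subunit of the membrane ring, read 12.11, 12.28 and 12.25 against 12.16, 12.09 and 12.14. It was the only bright subunit gene whose groups overlapped (change -0.08, 95% interval -0.30 to 0.13). ATPsyngamma, the rotor shaft, changed by -0.26 and ATPsynB, of the outer stalk, by -0.22, and neither passed. ATPsynbeta, the catalytic subunit, changed by -0.40 with an adjusted p of 0.0516. A second, dimmer ATPsynbeta probe set changed by 0.10 (adjusted p = 0.723), so the probe sets of this gene disagreed in sign. The dim extra probe sets of COX7B and COX7C also had positive changes (0.27 and 0.10) that did not pass.

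**Figure D3:**
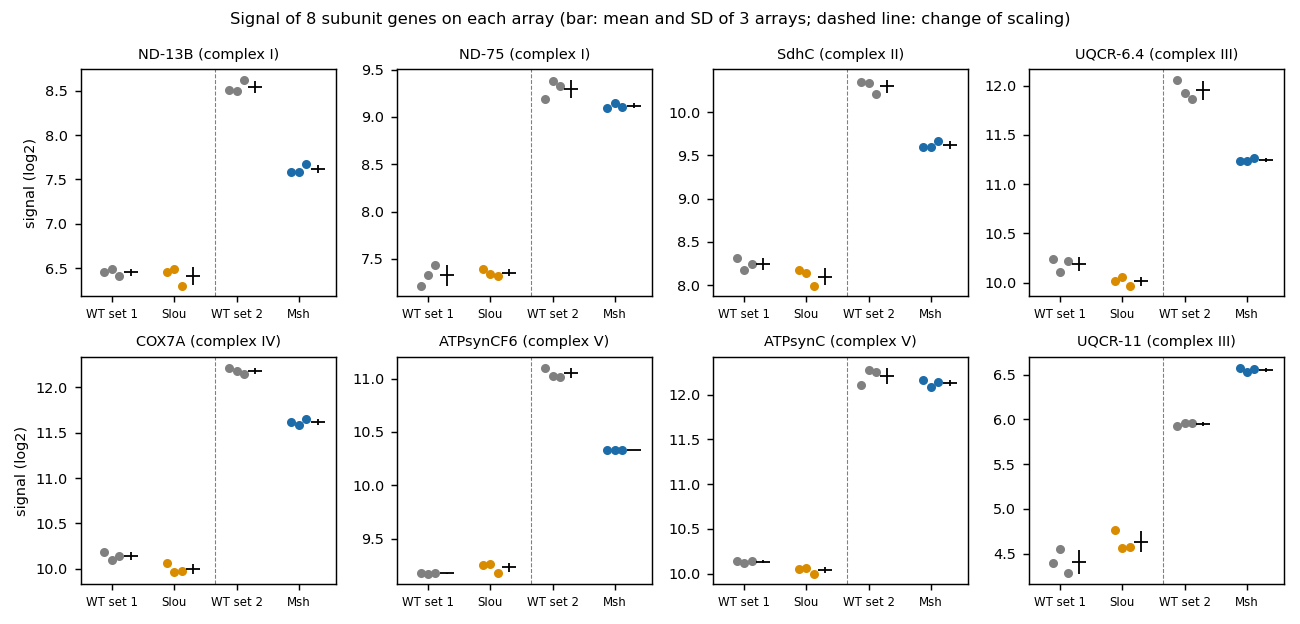
Log2 signal (vertical axis) of 8 subunit genes on each array, with 3 points a group and the mean and SD beside them; the dashed line parts the separately scaled parts of the data. Msh points lie below wild type set 2 for ND-13B, ND-75, SdhC, UQCR-6.4, COX7A and ATPsynCF6, overlap it for ATPsynC and lie above it for UQCR-11.

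Other measures moved with the Msh arrays. For an Act5C control, the 3′ probe set minus the 5′ probe set was 1.40 to 1.47 in set 2 and 2.12 to 2.31 in Msh, against 1.42 to 1.46 in set 1 and 1.46 to 1.49 in Slou. For another actin control it was 1.01 to 1.29 in set 2 and 1.48 to 1.64 in Msh, but 0.70 to 0.94 in set 1 and 0.50 to 0.59 in Slou. For eIF-4a it was 1.42 to 1.61 in set 2 and 1.66 to 1.79 in Msh, and for GAPDH those groups overlapped (0.58 to 1.88 and 0.28 to 1.48). The mean of the added poly-A controls was 10.47 to 11.27 in set 2 and 8.97 to 9.27 in Msh, and it was also lower in Slou, at 5.92 to 6.13 against 6.68 to 6.75 in set 1. Of 5 measured markers on the epidermis and trachea list, sage included, all 5 rose in Msh, against 2.86% of all tested probe sets. Their mean signal went from between 7.41 and 7.68 to between 8.32 and 8.44. Of 8 markers of hemocytes and fat body, 4 fell in Msh, against 3.95% of all tested probe sets, and 0 rose (1 with the intensity trend). Among the 4 were the collagen IV genes Col4a1 (-2.57) and vkg (-2.53). The list mean went from between 9.17 and 9.30 to between 7.93 and 8.06. The mean of 5 neural markers overlapped between groups (8.58 to 8.74 and 8.61 to 8.74), but 1 of the 5 was called lower (-0.85) while 4 changes were positive. The mean of 10 mesoderm and muscle markers was 8.49 to 8.60 in set 2 and 8.86 to 8.89 in Msh, with 2 higher and 1 lower. No epidermal or hemocyte marker was near 0 in set 2, where the dimmest was Hml at 3.88. The part of these measures in the fall of the subunit genes was not tested.

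In the Slou arrays, subunit genes stayed close to wild type. Of 72 members, 0 passed in either direction, while 1.24% of all tested probe sets rose and 1.08% fell. At an unadjusted p under 0.05 there were 2 members, both L paralogues. The median change of the 51 subunit names was -0.05, against -0.01 over all tested probe sets, and these genes ran from -0.20 (UQCR-Q) to 0.24 (ND-39). In 33 of the 51 genes the groups overlapped. In 13 all 3 Slou arrays lay below the wild-type arrays and in 5 above, which held for 12.8% and 12.5% of all tested probe sets. Most tested probe sets are dimmer. Of 3311 probe sets in the same range of set 1 signal as the 48 brighter subunit genes, 1069 lay below and 853 above. On the arrays, the median signal over the subunit genes was 8.35, 8.24 and 8.30 in set 1 and 8.23, 8.24 and 8.23 in Slou.

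The scatter of these arrays set limits on the Slou changes. Since that scatter may be technical, the limits may not cover variation between collections of embryos. The 95% intervals of the 48 brighter genes had a median half-width of 0.26, and 46 of them lay within 0.5 of no change in both directions. A single-gene change of the size seen for ND-13B in Msh was outside its interval in Slou (-0.30 to 0.23). For 38 of the 48 genes the Slou interval lay wholly above the gene's own Msh change.

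With the intensity trend, 1 member was higher and 5 lower in Slou, where 6.39% of all probe sets rose and 6.29% fell. Of the 3311 probe sets in the same range of set 1 signal, 652 rose and 804 fell with the trend. The member that was higher was ND-39, an accessory complex I subunit. It read 7.62, 7.54 and 7.42 in set 1 and 7.68, 7.71 and 7.91 in Slou (trend adjusted p = 0.0121). The Slou arrays stood just above the wild-type arrays. The 5 lower genes were UQCR-6.4, COX5A, COX5B, COX7A and ATPsynE, at -0.14 to -0.19. For COX5B the readings were 9.33, 9.44 and 9.41 in set 1 and 9.18, 9.23 and 9.20 in Slou, a small gap with no overlap. The median changes by complex were -0.02 in complex I, -0.13 in complex II, -0.11 in complex III, -0.09 in complex IV and -0.08 in complex V. Among hemocyte and fat body markers 4 of 8 fell in Slou and 1 rose (Pxn), where 1.08% of all tested probe sets fell and 1.24% rose. The list mean was 7.72 to 7.82 in set 1 and 6.36 to 6.58 in Slou. Of 5 neural markers 2 fell, nerfin-1 and pros, and their mean was 6.11 to 6.69 in set 1 and 5.70 to 5.98 in Slou. Of 10 mesoderm and muscle markers 2 rose and 2 fell, and of 5 markers of epidermis and trachea 0 passed (0 at an unadjusted p under 0.05, 1 lower with the trend). The part of these markers in the small Slou changes was not tested.

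**Figure D4:**
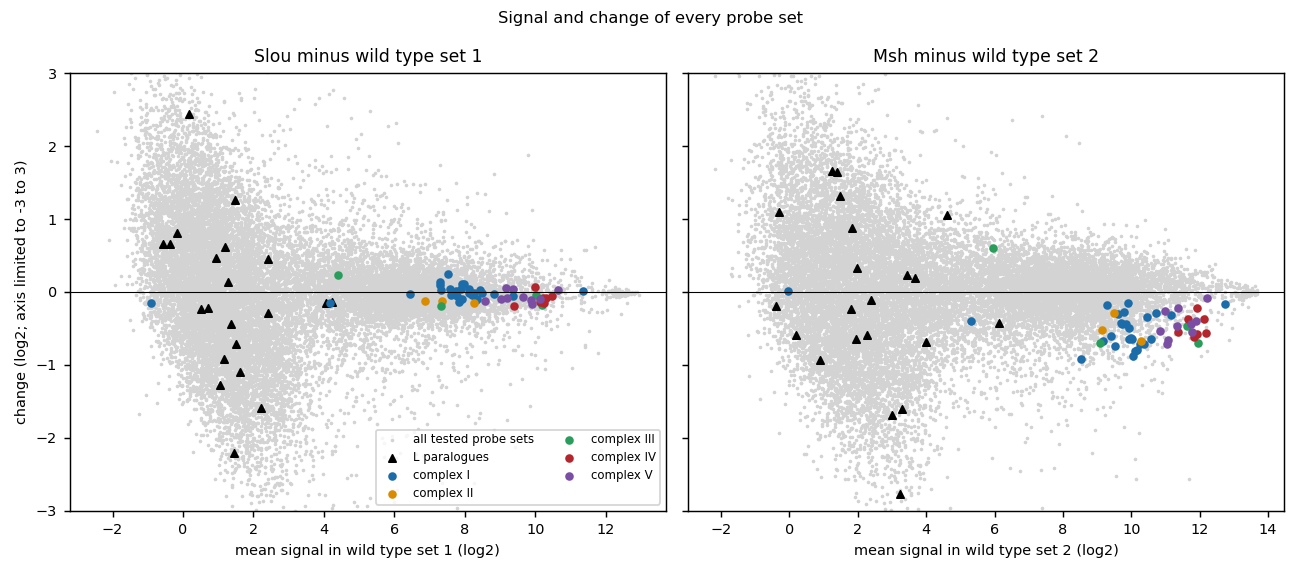
Change (vertical axis, log2) against mean wild-type signal (horizontal axis, log2) for all 18769 tested probe sets in grey, subunit genes as coloured points and L paralogues as triangles, for Slou on the left and Msh on the right. The bright subunit genes lie along 0 in Slou and below it in Msh, and the paralogues lie in the dim, widely scattered range.

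The difference between the effects was itself tested, as the Slou change minus the Msh change in a limma fit of all 12 arrays. It was positive and passed for 28 of 72 members, against 4.76% of all tested probe sets in that direction and 580 of the brightest 4693. It was negative and passed for 0 members (0 with the intensity trend as well). At an unadjusted p under 0.05 there were 41 members of either sign. All 28 were subunit names, with 16 in complex I, 1 in complex II, 2 in complex III, 3 in complex IV and 6 in complex V. The median difference over the 51 subunit names was 0.44, against -0.01 over all tested probe sets. Of the 34 genes called in Msh, 26 were also called here. Among the called genes ND-15 had the largest difference, at 0.91 (SE 0.11, adjusted p = 0.00143), followed by ND-13B at 0.89 (SE 0.11) and ND-13A at 0.78 (SE 0.10). The 2 genes called for the difference alone were ND-39 (0.55, adjusted p = 0.0273), whose changes had opposite signs, and ATPsynbeta (0.42, adjusted p = 0.0274). The second ATPsynbeta probe set had a difference of 0.07 that did not pass (limma adjusted p = 0.883). For ATPsynC the difference was -0.01 (SE 0.10). The effects come from parts with separate scalings, so a difference in how wide the values are spread enters this test. Leaving out 1 array at a time gave 15 to 24 calls.

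The 21 L paralogues lay near the low end of the signal range. Their group means ran from -0.57 to 4.23 in set 1 (median 1.27) and from -0.38 to 6.13 in set 2 (median 1.97). The brightest were ATPsynepsilonL (4.23 and 6.13) and COX4L (4.06 and 4.61). Of the 21, 0 passed in Slou, in Msh or in the difference, and 0 passed with the intensity trend; at an unadjusted p under 0.05 there were 2 in Slou (ND-51L2 and SdhBL), 2 in Msh (SdhAL and COX5BL) and 1 in the difference. Their changes ran from -2.22 to 2.45 in Slou and from -2.77 to 1.66 in Msh, as wide as other dim probe sets in the plot of change against signal. In Msh the SE of the change was 0.14 for ATPsynbetaL and 0.20 for ATPsynepsilonL, and it was larger for the 19 others, up to 1.26. Of 8 measured germline and testis markers, 1 (aub) rose in Msh and 0 passed in Slou (2 at an unadjusted p under 0.05, 1 lower with the trend), and the testis genes aly, can and dj averaged below 0 in set 1.

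A list of chain genes with other names had 7 measured genes, of which 3 fell in Msh, against 3.95% of all tested probe sets. The 7 include Cyt-b5, a cytochrome b5 gene that is not a subunit of the chain. The 3 that fell were ox, a small complex III subunit (-0.69, SE 0.07, adjusted p = 0.0149), and the complex IV subunits levy (-0.63) and cype (-0.49). The catalytic subunit blw, the ATP synthase alpha chain, changed by -0.21 and the electron carriers Cyt-c1 and RFeSP of complex III by -0.27 and 0.04, and none of these passed. The median of the 7, with Cyt-b5 included, was -0.27 in Msh and 0.00 in Slou, where 0 passed (1 at an unadjusted p under 0.05, 3 with the intensity trend).

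Of 12 assembly factors, 3 fell in Msh, against 3.95% of all tested probe sets. Cox17, a copper chaperone for complex IV, changed by -0.93 (SE 0.07, adjusted p = 0.00886), Surf1 by -0.61 and Cox10, which makes the haem of complex IV, by -0.44. The list's median was -0.38 in Msh and -0.01 in Slou, where 0 passed (1 at an unadjusted p under 0.05, 1 with the intensity trend).

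Genes of mitochondrial ribosomal proteins, which translate the subunits encoded inside the mitochondrion, fell in Msh as well. Of 69 genes, 39 fell and 0 rose, all 69 changes were negative, and the median was -0.47. Over all tested probe sets 3.95% fell. The genes with the smallest p were mRpL18, mRpL17 and mRpL41, at -0.98, -0.83 and -0.92. In Slou the median was -0.08 and 0 passed (1 at an unadjusted p under 0.05). With the intensity trend 4 were higher and 7 lower, where 6.39% of all probe sets rose and 6.29% fell. Among the brightest 4693 probe sets, 885 rose and 930 fell with the trend. Cytosolic ribosomal protein genes gave a contrast within the same arrays: of 33, 1 fell in Msh (RpS19b, -1.03), and the median was -0.05 in Msh and -0.02 in Slou. Most of these lie at the top of the signal range, with a median of 13.26 in set 2.

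Other mitochondrial lists had 0 or 1 genes called lower in Msh, and more with the intensity trend, where 9.21% of all probe sets fell. Among the brightest 4693 probe sets, 1185 fell with the trend. The trend counts of lower genes were 2 of 9 for the citric acid cycle and pyruvate dehydrogenase, 7 of 13 for carriers, pore and import, and 4 of 9 for mitochondrial DNA and regulators. In the fit without the trend, of 9 genes of the citric acid cycle and pyruvate dehydrogenase, 0 fell in Msh and 1 rose, Idh3b, part of the NAD-dependent isocitrate dehydrogenase (0.90, SE 0.08, adjusted p = 0.0111), and the median was -0.10. In Slou, Idh3b rose by 0.93 (SE 0.10) and Ogdh, of the oxoglutarate dehydrogenase complex, by 1.11 (SE 0.09, adjusted p = 0.0146). Of 13 genes of carriers, the outer membrane pore and protein import, 1 fell in Msh, Tim8 (-0.47), and the adenine nucleotide carrier sesB and porin changed by 0.08 and -0.06 without passing. The import gene Tim13, with a dim probe set, had the widest change of that list, 2.74 (SE 0.67, adjusted p = 0.0879; 0.0279 with the trend). Of 9 genes that maintain or transcribe mitochondrial DNA or regulate nuclear mitochondrial genes, 1 fell, TFAM (-0.54, SE 0.07, adjusted p = 0.0244), which packages mitochondrial DNA. mtSSB, the single-strand binding protein, changed by -0.60 with an adjusted p of 0.0533. The nuclear regulators ERR, ewg and Ets97D changed by 0.18, -0.05 and 0.10, and none passed. Of 3 genes of peroxide and superoxide defence, 0 passed in Msh (2 at an unadjusted p under 0.05, 2 lower with the trend), and their median was -0.35. The differences between lists were not tested.

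**Figure D5:**
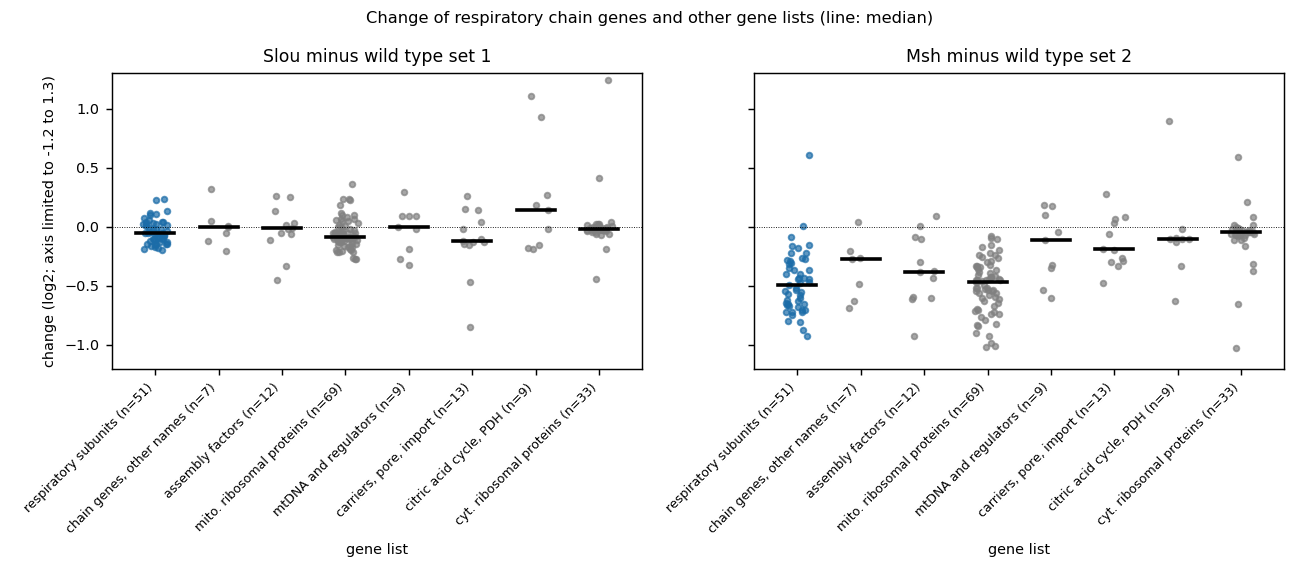
Change on the log2 scale (vertical axis) of each gene in 8 lists (horizontal axis), for Slou on the left and Msh on the right, with a line at the list's median. In Msh the respiratory subunits (median -0.49) and mitochondrial ribosomal proteins (-0.47) lie below 0 while cytosolic ribosomal proteins lie near it (-0.05); 1 point, Tim13 in Msh (2.74), lies outside the axis.

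Gene length and signal level were set against the changes of the 48 brighter subunit genes, as descriptions only. For the Msh change, Pearson's r with the log2 of the gene's span, introns included, was 0.19 and Spearman's rho 0.42, so shorter genes tended to have the more negative changes. Over 11893 genes rho was 0.14. With the wild-type signal, r was 0.32 and rho 0.24. For the Slou change the span gave r of 0.30 and rho of 0.21. All points of a comparison share the same 6 arrays. Of the 51 subunit probe sets, 10 are of a type that the array's naming marks as matching several transcripts, and 8 of these were among the 34 called in Msh, so RNA of near-identical sequence could add to their signal.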

How the data were processed

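Total RNA of sorted cells was labelled with biotin and measured on 12 single-colour Affymetrix arrays. The authors deposited 1 log2 value per probe set and array. They used the R package affy, per the submitters' processing notes (no version given). Background correction, scaling and summary are not given in the sources used here, and log2 was inferred from how large the deposited values are. From the 18952 probe sets, 183 controls were set aside. Of the 18769 tested, 13647 carry 1 gene symbol, 402 several and 4720 none. Genes are named only from the first kind, and the 72 members all matched the RefSeq table (Release 6) by gene number. No genome coordinates or sequences are printed. The promoter and protein comparisons that had been planned were not run, since no sequence table was used here.

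Tests used limma 3.58.1 in R 4.3.3 (lmFit and eBayes, with no intensity trend, no dim-probe filter and no block), and every adjusted p is Benjamini-Hochberg over the 18769 probe sets; they were checked on simulated data. The SE is the moderated one. No test of a list was made. Counts and medians of the members stand beside those of all probe sets. For the other lists the medians, and some of the counts, are given without them. Alternatives were an intensity trend, a fit of 12 arrays, a replicate block, leaving out each array, only the brighter probe sets, median centring, quantile normalization, the other wild-type set, every probe set of a member, and members without the paralogues. The trend with a block, and with arrays left out, was added after the data had been seen. The members, gene lists and tests were chosen with earlier results of these data known. Genes are named by a rule of smallest p (up to 6 in complex I, 4 in each other complex and 3 in each other list), plus the brightest and dimmest members, calls against the majority, and probe sets that disagree. Others (the complex I core genes, ATP synthase parts, regulators, markers) were named after their values were seen. The number of arrays and the distance from background both limit precision, and arrays hold no read counts. No steady pairing of the arrays by the letters A to C was seen. Arrays that share a letter had deviations from their group means correlated at -0.01 to 0.03 over all probe sets. Over the 48 brighter subunit genes the correlations were -0.33 to 0.35, of either sign. With 3 arrays a group, such correlations cannot exclude shared collections of embryos.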

Additional observations from a re-analysis of the deposited data

Results flagged for a closer look

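One probe set outside the comparisons showed a signal there. It is annotated with both CG40472 and ND-AGGG, a complex I subunit, and was left out because it carries more than 1 gene. It read 10.01, 10.12 and 10.13 in wild type set 2 and 9.54, 9.52 and 9.58 in Msh, a change of -0.54 (SE 0.08, limma adjusted p = 0.0285), with no overlap. Its change in Slou was 0.05. Which of the 2 genes gives the signal was not tested. The other 3 shared probe sets of chain genes did not pass in Msh. That of CG18809 and COX6B changed by -0.34 with no overlap (limma adjusted p = 0.059, 5.52e-05 with the intensity trend). That of ATPsynG and beat-Vb changed by -0.27 in Msh, where its groups overlapped. In Slou the ATPsynG and beat-Vb probe set rose by 0.29 with no overlap (limma adjusted p = 0.29, 1.51e-05 with the trend).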

How the results depend on the processing

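No direction of a member count, median or called gene reversed under any alternative run. For Slou, 0 members were called with 12 arrays, a replicate block, only brighter probe sets, centring, quantile normalization or any array left out, 6 with the intensity trend (4 to 8 with single arrays left out), 6 with the replicate block and trend together, and 9 (2 higher, 7 lower; median over the 72 members -0.12, from -0.05) against the other wild-type set after quantile normalization, which crosses the separate scalings. For Msh, the 34 calls became 0 with a replicate block, which left 0 calls in the whole table, and 0 to 17 with an array left out; they were 48 with the trend, 48 with block and trend, 39 with 12 arrays, 46 with only brighter probe sets, 28 with centring, 36 with quantile normalization and 31 against the other wild-type set (median over the 72 members -0.39, from -0.45). All 34 genes kept their call with the trend, 12 arrays, quantile normalization or only brighter probe sets, 28 kept it with centring and 25 with the other wild-type set. For the difference, 28 calls became 17 with a replicate block, 18 with centring, 15 to 24 with an array left out, 42 with the trend (37 to 43 with arrays left out) and 40 with only brighter probe sets (39 positive, 1 negative). The fit with fewer arrays has fewer degrees of freedom and the block takes more of them; other causes were not tested. Signals near background limit most of the 21 paralogues and the dim ND-B8 and ND-B12.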
